A study of Mus musculus with 12 samples.

Results

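The genes described here are 10 transcription factor genes of blood cells: Ikzf1, Ikzf3, Spi1, Runx1, Myb, Lmo2, Gfi1, Fli1, Tal1 and Lyl1. They were chosen by gene symbol, and 10 of the 10 had a probe set paired with a single symbol, among 22180 genes measured. RNA was measured on 12 Affymetrix arrays, 3 in each of 4 groups of mouse cells. The groups were leukemia cells from the spleen of a NOTCH1 model, GFP+ colonies labelled partially reprogrammed, GFP- colonies labelled reprogrammed, and an established culture of induced pluripotent stem (iPS) cells. Per the labels, the colonies and the iPS cells came from the leukemia cells. All 4 groups, leukemia included, carry the genotype R26rtTA;Col1a12lox-4F2A, that is, a doxycycline-controlled transactivator and a cassette of the factors Pou5f1, Sox2, Klf4 and Myc. The labels give neither the age of the animals nor what GFP marks. The 3 leukemia titles share 1 leukemia number. The titles number the arrays of each group as biological replicates, without saying whether these came from different animals or cultures. The p-values therefore reflect how far these arrays spread.

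Blood cell identity is held by a small set of transcription factors that act in combination. Tal1 and Lyl1 are basic helix-loop-helix (bHLH) proteins that pair with E proteins and, with the adaptor Lmo2, form complexes that can hold GATA factors. Runx1, Myb and the ETS factors Fli1 and Spi1 act in blood stem cells and in several lineages, Gfi1 is a zinc finger repressor, and Ikzf1 (Ikaros) and Ikzf3 (Aiolos) are zinc finger regulators of lymphocytes. Tal1, Lyl1 and Lmo2 are also known as oncogenes of T cell leukemia.

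Levels are log2 values of 1 probe set per gene, made by the authors with robust multi-array averaging (RMA), and are compared between arrays only, since probe sets differ in brightness. Differences are log2 ± standard error (SE) from limma, and "called" means a Benjamini-Hochberg adjusted p, taken over the 22180 genes, under 0.05. Arrays of a group correlated across genes at 0.994 or above in leukemia and in iPS cells, at 0.937 to 0.975 in GFP+ colonies and at 0.887 to 0.970 in GFP- colonies. The labels were checked against marker lists: the T cell list (9 genes) averaged 10.01 to 10.09 on the leukemia arrays and 5.40 to 6.65 elsewhere, and the pluripotency list (9 genes) averaged 9.40 to 9.46 on the iPS arrays and 5.30 to 5.67 in leukemia. On single GFP+ arrays the pluripotency list ran from 7.07 to 9.44, and on GFP- arrays from 6.35 to 9.60. The epithelial list averaged 5.64 to 5.76 in leukemia, 8.25 to 8.29 in iPS cells and up to 11.08 in colonies.

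Most of these factors were higher in the leukemia than in the 3 other groups. Against leukemia, 8 of the 10 were lower in GFP+ colonies, 7 in GFP- colonies and 7 in iPS cells, and 0 were higher. Of all genes, 12.3% were called lower and 9.6% higher in GFP+ colonies, 12% lower and 9.02% higher in GFP- colonies, and 11.9% lower and 12.4% higher in iPS cells. The median difference of the 10 factors was -1.69, -2.17 and -2.18 in these comparisons, whereas that of all genes was -0.038, -0.010 and -0.031. For 7 factors (Ikzf1, Ikzf3, Spi1, Runx1, Myb, Gfi1 and Fli1), the 3 leukemia arrays lay above the 9 other arrays, which held for 12.8% of all genes. The same 7 were called lower in all 3 comparisons, as were 7.16% of all genes. These comparisons share the 3 leukemia arrays and are not independent of each other. In bulk RNA, fewer cells of a type and less RNA per cell cannot be told apart. The count in GFP+ colonies was 5 in place of 8 when leukemia replicate 2, leukemia replicate 3 or GFP+ replicate 1 was left out, or when the arrays were scaled again by cyclic loess. Under these settings 8.6%, 8.66%, 9.5% and 9.15% of all genes were called lower.

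**Figure D1:**
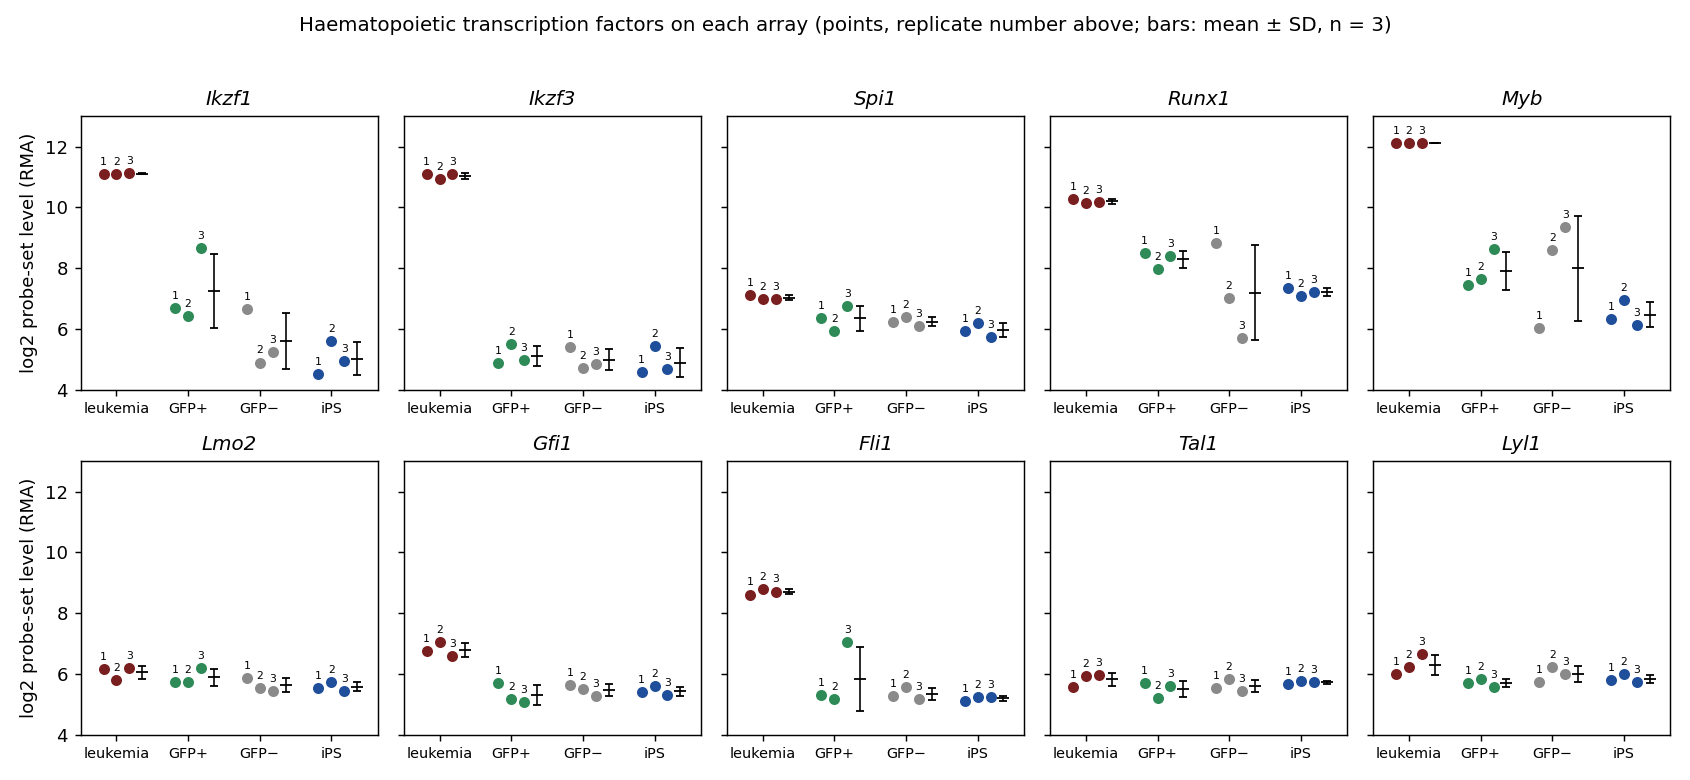
Log2 probe-set level (vertical axis) of each of the 10 factors by group (horizontal axis). Points are arrays, with the replicate number above each, and bars are the mean ± SD of 3 arrays. Ikzf1, Ikzf3, Runx1 and Myb lie above 10 on the leukemia arrays and below 10 on the 9 others, whereas Tal1, Lmo2 and Lyl1 lie between 5.20 and 6.66 throughout.

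Sequence upstream of the start site is shown for Ikzf1, Runx1 and Myb, the factors with the widest range among colony arrays, and for Tal1, which was not called in any comparison. The RefSeq table (build GRCm38.p6) matched 6 of the 10 factors, with 10 promoters, and Ikzf3, Spi1, Lmo2 and Fli1 are named only. Each window is the 250 bases before a start site, written 5′ to 3′ on the strand of the gene. Capitals mark matches, on either strand, to short core motifs of these families: GGAAGT for ETS factors, TGTGGT for RUNX factors, AACNG for MYB factors, AGATAA for GATA factors, CAGNTG for bHLH dimers (the E-box), TGGGAA for Ikaros factors and AAATCA for Gfi factors. Matches to AACNG on opposite strands, and to AACNG and CAGNTG, can overlap.
Ikzf1, chr11:11685675-11685924, plus strand: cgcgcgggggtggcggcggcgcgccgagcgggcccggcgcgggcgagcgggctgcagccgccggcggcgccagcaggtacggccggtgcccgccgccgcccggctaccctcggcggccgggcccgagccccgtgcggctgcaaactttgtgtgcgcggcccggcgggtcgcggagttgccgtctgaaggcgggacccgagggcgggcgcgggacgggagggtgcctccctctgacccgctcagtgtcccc
Runx1 distal, chr16:92826075-92826324, minus strand: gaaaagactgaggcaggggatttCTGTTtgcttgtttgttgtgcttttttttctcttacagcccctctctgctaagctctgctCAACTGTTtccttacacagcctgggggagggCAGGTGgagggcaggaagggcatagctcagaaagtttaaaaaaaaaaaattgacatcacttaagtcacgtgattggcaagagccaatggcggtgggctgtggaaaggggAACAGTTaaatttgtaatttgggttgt
Runx1 proximal, chr16:92697330-92697579, minus strand: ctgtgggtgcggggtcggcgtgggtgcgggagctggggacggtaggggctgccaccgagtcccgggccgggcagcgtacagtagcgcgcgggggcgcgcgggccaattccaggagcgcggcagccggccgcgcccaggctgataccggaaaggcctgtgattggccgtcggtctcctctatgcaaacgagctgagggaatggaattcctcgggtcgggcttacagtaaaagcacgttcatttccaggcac
Myb, chr10:21160985-21161234, minus strand: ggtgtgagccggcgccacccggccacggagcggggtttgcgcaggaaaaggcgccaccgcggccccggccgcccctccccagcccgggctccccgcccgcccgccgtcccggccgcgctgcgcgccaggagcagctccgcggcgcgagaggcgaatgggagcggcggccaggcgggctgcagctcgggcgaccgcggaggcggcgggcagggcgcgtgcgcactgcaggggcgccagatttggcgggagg
Tal1, chr4:115056176-115056425, plus strand: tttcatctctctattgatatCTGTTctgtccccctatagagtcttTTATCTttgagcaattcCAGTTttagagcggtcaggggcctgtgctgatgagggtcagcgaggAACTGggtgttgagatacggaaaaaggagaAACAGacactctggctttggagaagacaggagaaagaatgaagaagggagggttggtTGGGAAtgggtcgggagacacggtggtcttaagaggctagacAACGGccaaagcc
The Ikzf1 and Myb windows shown are 82% and 81.2% G and C, against a median of 52.4% over the 32851 promoters of the table, and hold 0 matches. The distal Runx1 window is 45.6% G and C and holds 7 matches (5 to AACNG and 2 to CAGNTG), whereas the proximal one is 67.6% G and C and holds 0. The Tal1 window shown (48.8% G and C) also holds 7 matches, 5 to AACNG, 1 to AGATAA and 1 to TGGGAA. Ikzf1 and Tal1 each have another start site in the table, and the windows differ within a gene: the other Ikzf1 window (47.6% G and C) holds 4 matches, 2 to AACNG and 2 to AAATCA, and the other Tal1 window (62.8% G and C) holds 0. The 2 Gfi1 windows hold 1 and 3 matches and the Lyl1 window holds 1. Over all promoters, 74.2% hold AACNG, 44.8% CAGNTG, 21.6% TGGGAA, 19.7% GGAAGT, 14% TGTGGT, 12.4% AAATCA and 9.99% AGATAA. A match describes letters only, a window without one lacks only these letters, and the arrays do not tell which start site was used.

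Ikzf3 fell most of the 10 factors in each of the 3 groups, and Ikzf1 was next in GFP- colonies and iPS cells. Ikzf1, a DNA-binding regulator needed for lymphocyte development, read 11.11, 11.09 and 11.13 on the 3 leukemia arrays. It read 6.69, 6.41 and 8.66 in GFP+ colonies, 6.64, 4.89 and 5.24 in GFP- colonies, and 4.50, 5.59 and 4.96 in iPS cells. Leukemia was clear of every other array, and GFP+ replicate 3 was the highest of the rest. The difference from leukemia was -3.86 ± 0.59 in GFP+ colonies (14.5-fold lower, limma adjusted p = 9.19e-04), and 23.6-fold without GFP+ replicate 3. It was -5.52 ± 0.59 in GFP- colonies (45.8-fold, adjusted p = 8.35e-05) and -6.09 ± 0.59 in iPS cells (68.3-fold, adjusted p = 3.51e-05). Ikzf3, its relative in lymphocytes, behaved more uniformly. It read 11.10, 10.92 and 11.10 in leukemia, 4.89, 5.50 and 4.97 in GFP+ colonies, 5.40, 4.73 and 4.85 in GFP- colonies, and 4.57, 5.43 and 4.67 in iPS cells. The 9 arrays outside leukemia spanned less than 1 log2 unit and their groups overlapped. The falls were 60.6-fold, 66.2-fold and 71.0-fold (differences of -5.92, -6.05 and -6.15, each ± 0.26), with limma adjusted p of 1.1e-07, 9.37e-08 and 7.92e-08. Of 3 other family members measured, 1, 2 and 1 were called lower. Ikzf2 (Helios), a T cell family member, differed by -2.29 ± 0.57 in GFP+ colonies (limma adjusted p = 0.0154, but 0.0539 without leukemia replicate 3), by -3.26 ± 0.57 in GFP- colonies (-4.04 without replicate 1 and -2.47 without replicate 3) and by -4.79 ± 0.57 in iPS cells. Ikzf5 was called only in GFP- colonies (-0.57, adjusted p = 0.0221), a call lost without leukemia replicate 2 or 3 (adjusted p up to 0.095 over the alternatives that lost it).

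Myb, a DNA-binding factor needed by blood progenitors and early T cells, read 12.12, 12.11 and 12.10 in leukemia. It read 7.45, 7.66 and 8.62 in GFP+ colonies, 6.03, 8.60 and 9.34 in GFP- colonies, and 6.33, 6.94 and 6.14 in iPS cells. GFP- colonies thus held both the highest and the lowest colony array, and replicate 1 lay below the 3 iPS arrays. Myb fell 18.4-fold in GFP+ colonies (-4.20 ± 0.68, limma adjusted p = 0.00137), 17.4-fold in GFP- colonies (-4.12 ± 0.68, adjusted p = 0.00154) and 49.9-fold in iPS cells (-5.64 ± 0.68, adjusted p = 1.68e-04). The GFP- fall was 8.81-fold without GFP- replicate 1 and 27.8-fold without GFP- replicate 3. A second, dimmer Myb probe set averaged 7.23 ± 0.07 (SD, n = 3) in leukemia, 6.02 ± 0.08 and 5.99 ± 0.09 in the GFP+ and GFP- colonies and 5.83 ± 0.32 in iPS cells. It was highest in leukemia as well, but its colony arrays spanned only 5.90 to 6.11, without the spread of the brighter probe set. Its relatives went the other way or were not called. Mybl1, known for its role in male germ cells, rose in iPS cells (1.37, limma adjusted p = 0.0161), a call lost without leukemia replicate 1 or 3 or iPS replicate 2 or 3 (adjusted p 0.0529 to 0.0597). Mybl2, a cell cycle factor, differed by 0.96, 0.95 and 2.26 and was not called.

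Runx1, the core-binding factor that sets up blood stem cells, fell less. It read 10.28, 10.13 and 10.19 in leukemia, 8.49, 7.97 and 8.41 in GFP+ colonies, 8.83, 7.02 and 5.72 in GFP- colonies, and 7.33, 7.07 and 7.20 in iPS cells. GFP- colonies ran from above the iPS arrays (replicate 1) to below them (replicates 2 and 3). The difference from leukemia was -1.91 ± 0.58 in GFP+ colonies (3.75-fold, limma adjusted p = 0.0374), -3.01 ± 0.58 in GFP- colonies (8.06-fold, adjusted p = 0.00375) and -3.00 ± 0.58 in iPS cells (7.99-fold, adjusted p = 0.00326). The GFP- fall was 14.2-fold without GFP- replicate 1 and 4.84-fold without GFP- replicate 3, and was called in both. The GFP+ call held in 9 of 20 alternatives. It was lost without any 1 leukemia, GFP+ or iPS array or GFP- replicate 2, and by cyclic loess (adjusted p 0.0513 to 0.103). Both relatives measured were lower in all 3 groups. Cbfb, the partner that stabilises Runx proteins on DNA, differed by -1.11 ± 0.20, -1.19 ± 0.20 and -1.20 ± 0.20 (limma adjusted p = 0.00241, 0.00152 and 0.00126). Runx3, which acts in T cells, differed by -0.79 ± 0.17, -0.99 ± 0.17 and -1.29 ± 0.17 (adjusted p = 0.00638, 0.0017 and 2.54e-04).

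Of the ETS factors, Fli1, which acts in blood stem cells, platelets' precursors and endothelium, read 8.62, 8.80 and 8.72 in leukemia. It read 5.32, 5.17 and 7.06 in GFP+ colonies, 5.28, 5.58 and 5.19 in GFP- colonies, and 5.10, 5.25 and 5.25 in iPS cells. Apart from GFP+ replicate 3, colonies and iPS cells lay within 5.10 to 5.58. Fli1 fell 7.28-fold (-2.86 ± 0.39, limma adjusted p = 4.71e-04), 10.3-fold (-3.36 ± 0.39, adjusted p = 1.61e-04) and 11.4-fold (-3.51 ± 0.39, adjusted p = 9.87e-05) in GFP+ colonies, GFP- colonies and iPS cells. Without GFP+ replicate 3 the first of these falls was 11.1-fold. Of 10 endothelial markers, 0 were called lower than leukemia and 1, 1 and 3 higher. Their mean ran from 5.93 to 5.96 in leukemia, 5.88 to 5.98 and 5.69 to 6.18 in GFP+ and GFP- colonies and 6.24 to 6.27 in iPS cells. Members went both ways: Pecam1, which leukocytes and platelets also carry, differed by -1.89, -1.62 and -1.04 (not called), and Tek by 1.74, 1.30 and 2.08 (limma adjusted p = 0.00548, 0.0245 and 0.00164). The part of endothelial cells in the Fli1 levels was not tested. Spi1, the master factor of myeloid and B cells, had a smaller range. It read 7.12, 6.97 and 6.99 in leukemia, 6.35, 5.92 and 6.77 in GFP+ colonies, 6.21, 6.40 and 6.11 in GFP- colonies, and 5.92, 6.21 and 5.75 in iPS cells. The leukemia arrays were the highest, with GFP+ replicate 3 next. Spi1 fell by 0.68 ± 0.20 on the log2 scale in GFP+ colonies (limma adjusted p = 0.0315), by 0.79 ± 0.20 in GFP- colonies (adjusted p = 0.0162) and by 1.07 ± 0.20 in iPS cells (2.10-fold, adjusted p = 0.00257). The GFP+ call held in 12 of 20 alternatives, and was lost without any 1 leukemia array (adjusted p = 0.103, 0.074 and 0.0775) or without GFP+ replicate 1 (0.0771) or 2 (0.0857), by cyclic loess (0.06) and in a fit on these 2 groups alone (0.0656). The GFP- call was lost without leukemia replicate 1 (adjusted p = 0.0615). Of 9 other ETS genes, 3, 4 and 5 were called lower and 0 higher. Ets1, a lymphocyte factor, fell most, by 3.71 ± 0.28, 3.84 ± 0.28 and 3.78 ± 0.28 on the log2 scale (limma adjusted p = 5.79e-06, 4.29e-06 and 4.69e-06). Elf4 was not called in GFP+ colonies (-1.12) and fell in GFP- colonies (-1.37, adjusted p = 0.0244) and in iPS cells (-2.60, adjusted p = 5.32e-04). Its GFP- call was lost without any 1 leukemia array or without GFP- replicate 2 or 3 (adjusted p 0.0646 to 0.0994 over the alternatives that lost it).

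Gfi1, a repressor that acts in T cells and granulocytes, read 6.75, 7.06 and 6.60 in leukemia. It read 5.71, 5.17 and 5.09 in GFP+ colonies, 5.65, 5.52 and 5.27 in GFP- colonies, and 5.40, 5.60 and 5.30 in iPS cells. Leukemia lay above all other arrays, and the 3 other groups overlapped. Gfi1 fell 2.79-fold (-1.48 ± 0.19, limma adjusted p = 2.73e-04), 2.50-fold (-1.32 ± 0.19, adjusted p = 5.63e-04) and 2.58-fold (-1.37 ± 0.19, adjusted p = 3.78e-04). Its relative Gfi1b, an erythroid and megakaryocyte repressor, was not called (-0.18, -0.17 and -0.19). Marker lists of other blood cells differed from each other. Of 12 macrophage genes, 0, 1 and 2 were called lower than leukemia in GFP+ colonies, GFP- colonies and iPS cells, and 1, 1 and 1 higher. Of 7 megakaryocyte and platelet genes, 0, 0 and 1 were called lower, and of 8 mast cell and basophil genes 2, 2 and 2. In these 2 lists 0 were called higher. The neutrophil list (10 genes) averaged 8.49 to 8.57 in leukemia and 5.08 to 5.93 on the 9 other arrays, with 8, 9 and 9 called lower. The B cell list (9 genes measured) averaged 6.44 to 6.47 in leukemia and 5.46 to 5.75 elsewhere, with 6 called lower in each comparison and 0, 0 and 1 higher. The erythroid list (6 genes) averaged 6.54 to 6.75 in leukemia and 4.97 to 5.19 elsewhere, with 6 called lower in each comparison. The part of these cells in the leukemia levels was not tested.

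The members of the bHLH and LIM adaptor complex had small differences, of which 1 was called. Their means over all arrays lay below the median of genes (6.20), and no detection call was used. A small difference therefore does not show that they were expressed. Tal1 read 5.57, 5.95 and 5.97 in leukemia, 5.70, 5.20 and 5.62 in GFP+ colonies, 5.54, 5.82 and 5.44 in GFP- colonies, and 5.68, 5.77 and 5.73 in iPS cells. All 4 groups overlapped. The differences were -0.32 (95% interval -0.68 to 0.04), -0.23 (-0.59 to 0.13) and -0.10 (-0.46 to 0.26), with limma adjusted p of 0.198, 0.375 and 0.722. Lyl1, its closest relative here, read 6.00, 6.22 and 6.66 in leukemia, 5.72, 5.84 and 5.56 in GFP+ colonies, 5.75, 6.24 and 6.02 in GFP- colonies, and 5.81, 5.99 and 5.73 in iPS cells. Leukemia lay above GFP+ and iPS arrays by a narrow margin and overlapped GFP- ones. Lyl1 fell by 0.59 ± 0.18 on the log2 scale in GFP+ colonies (limma adjusted p = 0.0402), and differed by -0.30 ± 0.18 in GFP- colonies (0.293) and by -0.46 ± 0.18 in iPS cells (0.0961), neither called. The GFP+ call held in 9 of 19 alternatives. It was lost without leukemia replicate 2 (adjusted p = 0.0819) or 3 (0.145), GFP+ replicate 1 (0.0896) or 3 (0.106), or any 1 iPS array (0.0541 to 0.0608), by cyclic loess (0.0928) and in a fit on these 2 groups alone (0.068). Lmo2, the adaptor, read 6.18, 5.81 and 6.19 in leukemia, 5.73, 5.74 and 6.20 in GFP+ colonies, 5.88, 5.56 and 5.45 in GFP- colonies, and 5.56, 5.74 and 5.46 in iPS cells. GFP+ replicate 3 matched the leukemia arrays, and the iPS arrays lay just below them. The differences were -0.17 ± 0.17, -0.43 ± 0.17 and -0.47 ± 0.17, with limma adjusted p of 0.553, 0.112 and 0.0728. The GFP- difference was called without GFP- replicate 1 (adjusted p = 0.0419), and the iPS one in 5 of 19 alternatives.

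Partners of that complex were measured as well. Of 7 other bHLH genes and E proteins or their inhibitors, 3, 4 and 2 were called lower and 0, 0 and 1 higher. Tcf12, an E protein of thymocytes, fell by 1.36 ± 0.21, 1.70 ± 0.21 and 2.21 ± 0.21 on the log2 scale (limma adjusted p = 9.63e-04, 2.33e-04 and 3.1e-05). Id3, an inhibitor of E proteins, differed by -1.51, -1.49 and -0.96 (adjusted p = 0.00502, 0.00536 and 0.042). The last of these calls was lost without any 1 leukemia or iPS array, GFP+ replicate 2 or GFP- replicate 2 (adjusted p up to 0.113). Of 4 LIM adaptor genes, 1 was called lower in each comparison. Ldb1, which bridges such complexes, differed by -0.63, -0.53 and -0.42, and Lmo4, a relative of Lmo2, by -0.92, -1.39 and -1.17. Ldb1 was called in GFP+ colonies (limma adjusted p = 0.0308), a call lost without any 1 leukemia array or GFP+ replicate 1 or 3 (0.0611 to 0.103). Lmo4 was called in GFP- colonies (adjusted p = 0.0084) and in iPS cells (0.0178), the last lost without leukemia replicate 1 or 2 or iPS replicate 2 or 3 (0.0516 to 0.0604). Over all 28 measured family relatives and partners of the 10 factors, 10, 13 and 11 were called lower and 0, 0 and 2 higher, with medians of -0.42, -0.51 and -0.35.

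**Figure D2:**
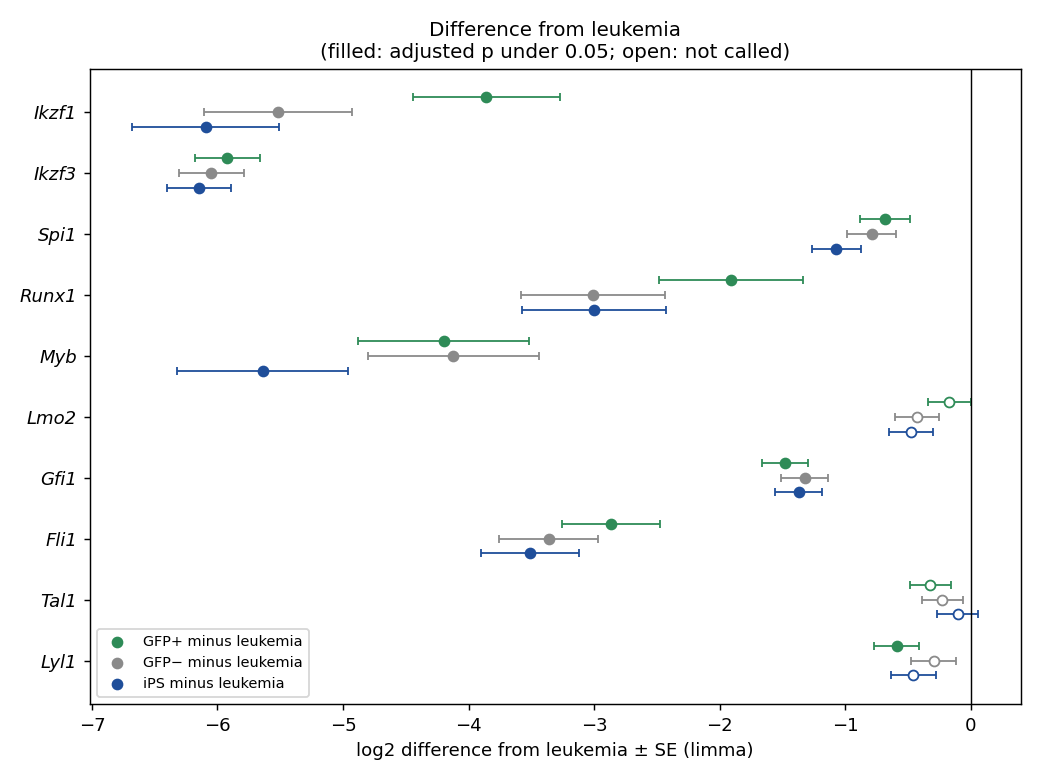
Difference from leukemia (horizontal axis, log2 ± SE from limma, n = 3 arrays per group) for each factor (vertical axis) in GFP+ colonies, GFP- colonies and iPS cells. Filled points are called at an adjusted p under 0.05 and open points are not. Ikzf3 differs by about the same amount in all 3 groups (-5.92 to -6.15), and Tal1 is open throughout.

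Among the groups outside leukemia, few differences passed the test. Between GFP- and GFP+ colonies 0 of the 10 factors and 0% of all genes were called by limma, and at an unadjusted p under 0.05 there were 1 factor and 1413 genes. Ikzf1 differed by -1.66 (95% interval -2.96 to -0.36, adjusted p = 0.738), Runx1 by -1.10 (-2.38 to 0.17, adjusted p = 0.76) and Myb by 0.08 (-1.43 to 1.59, adjusted p = 0.984), GFP- minus GFP+. The sign of the Myb difference changed when GFP+ replicate 1 or 2 or GFP- replicate 2 or 3 was left out. Without GFP- replicate 1, Runx1 was called (-1.92 ± 0.31, adjusted p = 0.0128), as were 4.59% of all genes. Without that array and GFP+ replicate 3 together, 3 were called: Runx1 (-1.86, adjusted p = 0.0164), Ikzf1 (-1.48, 0.0201) and Myb (1.42, 0.0207), beside 4.73% of all genes. With arrays weighted by their fit, 2 were called: Ikzf1 (-1.85, adjusted p = 0.0384) and Runx1 (-1.42, 0.0263), beside 5.93% of all genes.

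Between iPS cells and GFP+ colonies, 1 factor was called lower in iPS cells and 0 higher, against 4.23% and 6.15% of all genes. Ikzf1 fell 4.71-fold from GFP+ colonies to iPS cells (-2.24 ± 0.59, limma adjusted p = 0.0384), and 2.89-fold without GFP+ replicate 3. That call held in 10 of 20 alternatives. It was lost without any 1 leukemia array (adjusted p 0.0624 to 0.0627), GFP+ replicate 1 (0.0663) or 3 (0.0855), or iPS replicate 1 (0.138), 2 (0.0763) or 3 (0.116). It was also lost with the replicate number as a block (0.0607) and in a fit on these 2 groups alone (0.0592). That last fit called Runx1 (limma adjusted p = 0.013) and Myb (0.0434) instead, beside 12.7% of all genes. In the fit on all 12 arrays, Runx1 (-1.09, adjusted p = 0.251) and Myb (-1.44, adjusted p = 0.203) were not called. Without GFP- replicate 1, 3 factors and 21.7% of all genes were called, and without GFP+ replicate 2, 2 factors and 15.4% of all genes. Between iPS cells and GFP- colonies 0 factors were called in either direction, against 1.32% of all genes lower and 2.94% higher in iPS cells, and 1 factor passed an unadjusted p of 0.05. Myb differed by -1.52 (95% interval -3.03 to -0.01, adjusted p = 0.251), Ikzf1 by -0.58 (adjusted p = 0.626) and Runx1 by 0.01 (adjusted p = 0.994). Without GFP- replicate 1, Myb was called lower in iPS cells (-2.50 ± 0.35, adjusted p = 0.00486), as were 1.88% of all genes.

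Several of these factors varied widely between colony arrays of one group. The SD over 3 arrays had a median over all genes of 0.105 in leukemia, 0.217 in GFP+ colonies, 0.245 in GFP- colonies and 0.0998 in iPS cells. The largest SD among the factors was 0.33 (Lyl1), 1.22 (Ikzf1), 1.74 (Myb) and 0.55 (Ikzf1) in that order. Over the 6 colony arrays, Ikzf1 ranged over 3.76, Myb over 3.31, Runx1 over 3.11 and Fli1 over 1.89 on the log2 scale, whereas Spi1, Ikzf3 and Gfi1 ranged over 0.84, 0.77 and 0.61. To place a colony array, its level was expressed as a percentage of the log2 distance between the means of leukemia (0%) and iPS cells (100%), for the 7 factors that were separate in leukemia. GFP+ replicate 3 was the nearest to leukemia for Spi1 (24.4%), Ikzf1 (40.3%) and Fli1 (47.1%), but not for Ikzf3 (98.7%) or Gfi1 (124.8%). GFP- replicate 3 was the nearest for Myb (49.2%) and the farthest for Runx1 (149.5%). GFP- replicate 1 was the nearest for Runx1 (45.8%) and the farthest for Myb (107.9%). Runx1 and the brighter Myb probe set therefore ordered the 3 GFP- arrays in opposite ways. The second Myb probe set read 6.07, 5.90 and 6.00 on these arrays, highest on replicate 1, and did not show this order. The SD of 1.74 and the range of 3.31 given for Myb also belong to the brighter probe set. Of the 7 factors, 6, 4 and 5 lay above the highest iPS array on GFP+ replicates 1, 2 and 3, and 5, 3 and 1 on GFP- replicates 1, 2 and 3. Of the 2636 genes called lower in iPS cells than in leukemia, 55.8%, 50.2% and 63.6% lay above the highest iPS array on the GFP+ arrays and 57.6%, 48.4% and 43.7% on the GFP- arrays.

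**Figure D3:**
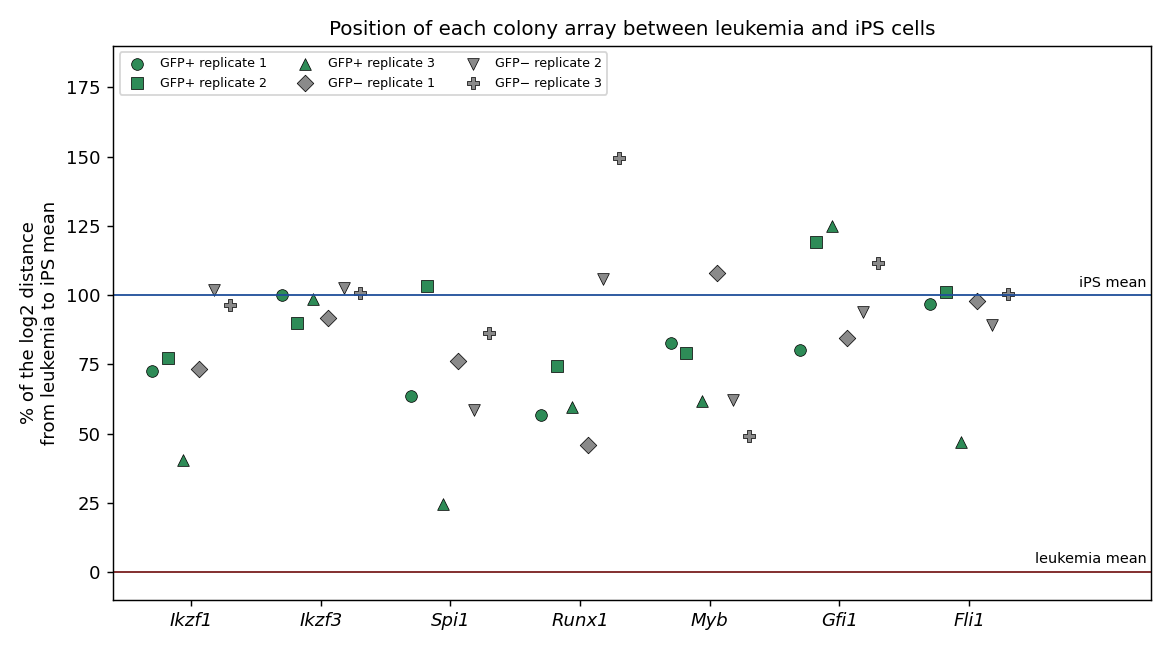
Position of each of the 6 colony arrays between the leukemia mean (0%) and the iPS mean (100%) on the log2 scale (vertical axis) for 7 factors (horizontal axis). Each symbol is 1 array. Ikzf3 clusters from 90.1% to 102.6%, whereas Runx1 runs from 45.8% to 149.5% and Spi1 from 24.4% to 103.2%. The scale differs by factor: iPS minus leukemia is -6.15 for Ikzf3 and -1.07 for Spi1. The log2 ranges over the colony arrays are similar for these 2 factors (0.77 and 0.84). The iPS arrays themselves run from 76.9% to 119.7% for Spi1.

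Markers of blood cells also differed from colony array to colony array, and so did lists outside blood. The epithelial list averaged 10.91, 10.40 and 10.50 on the GFP+ arrays and 11.08, 9.73 and 7.81 on the GFP- arrays. The pluripotency list averaged 8.19, 9.44 and 7.07 on the GFP+ arrays and 6.35, 9.21 and 9.60 on the GFP- arrays. The 10 pan-leukocyte genes averaged 6.94, 7.19 and 8.51 on the GFP+ arrays and 7.24, 6.99 and 6.39 on the GFP- arrays, between 10.30 to 10.33 in leukemia and 6.25 to 6.45 in iPS cells. Ptprc (CD45), the common leukocyte surface phosphatase, read 8.40, 8.83 and 10.75 on the GFP+ arrays, 8.37, 6.43 and 5.26 on the GFP- arrays, 11.73 ± 0.04 in leukemia and 5.24, 5.70 and 5.28 in iPS cells. Cd3e, a T cell receptor subunit, read 8.50, 8.26 and 9.57 on the GFP+ arrays and 9.83, 6.13 and 6.04 on the GFP- arrays, against 11.87 ± 0.05 in leukemia and 6.64 ± 0.21 in iPS cells. The T cell list (9 genes, Cd3e among them) averaged 5.91, 5.65 and 6.65 on the GFP+ arrays and 6.03, 5.40 and 5.55 on the GFP- arrays. It averaged 5.42 to 5.82 in iPS cells. Of the 9 genes, 6, 2 and 8 lay above the highest iPS array on the GFP+ arrays, and 4, 2 and 3 on the GFP- arrays. Cd3g (another subunit) had an iPS range of 4.38 to 5.27. It read 7.05 on GFP+ replicate 3 and 5.01 on GFP- replicate 1, the highest colony array for Cd3e. GFP+ replicate 3, high for Ikzf1, Fli1, Spi1 and Lmo2, had the highest pan-leukocyte mean and Ptprc level of the colonies. The 12 macrophage genes averaged 8.88 there, above 6.93 to 6.94 in leukemia, with 12 of 12 above the highest leukemia array. They averaged 6.35 and 6.36 on the other GFP+ arrays, 6.64, 7.50 and 5.85 on the GFP- arrays and 5.94 to 5.99 in iPS cells. On GFP- replicate 2, 8 of the 12 lay above leukemia, and Spi1 was the highest of its group there. Csf1r, the receptor that macrophages depend on, read 8.50, 6.77 and 9.46 on the GFP+ arrays and 8.98, 8.83 and 6.00 on the GFP- arrays. RMA values have no zero and no detection call was used, so no marker can be called absent. The part of other cell types in the colony levels of the factors was not tested. Without GFP+ replicate 3, Ikzf1, Fli1, Myb, Gfi1, Ikzf3 and Spi1 were still called lower in GFP+ colonies than in leukemia, and Runx1 (limma adjusted p = 0.0657) and Lyl1 (0.106) were not.

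**Figure D4:**
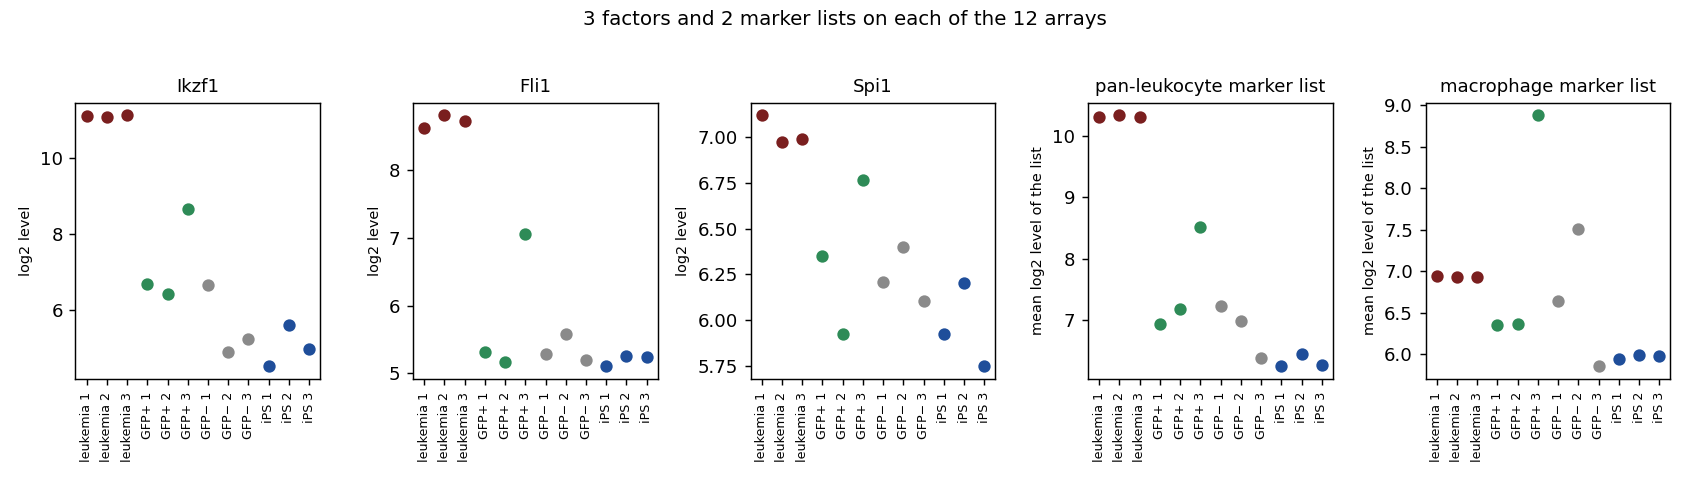
Log2 level of Ikzf1, Fli1 and Spi1, and mean log2 level of the pan-leukocyte (10 genes) and macrophage (12 genes) marker lists (vertical axes, each on its own scale), on each of the 12 arrays (horizontal axis). Each point is 1 array. GFP+ replicate 3 is the highest colony array in all panels, and exceeds leukemia only for the macrophage list (8.88).

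Other regulators of blood lineages were counted for comparison. Of 27 measured, 10, 12 and 12 were called lower than leukemia and 3, 2 and 4 higher in GFP+ colonies, GFP- colonies and iPS cells. Lymphoid regulators (8 genes) had 5 lower and 1 higher in each. Lef1, an HMG-box factor of early lymphocytes, fell by 5.71 ± 0.58, 5.17 ± 0.58 and 5.97 ± 0.58 on the log2 scale (limma adjusted p = 6.17e-05, 1.26e-04 and 3.78e-05). In GFP- colonies it fell by 4.43 without replicate 1 and fell by 5.78 without replicate 2. Bcl11b, which commits cells to the T lineage, fell by 3.67 ± 0.25, 4.76 ± 0.25 and 4.58 ± 0.25 (adjusted p = 3.46e-06, 4.79e-07 and 5.81e-07). Stem and progenitor regulators (10 genes) were mixed, with 2, 3 and 3 lower and 2, 1 and 2 higher. Gata2, a stem cell GATA factor, ran from 8.11 to 9.60 on the GFP+ arrays and read 9.36, 7.55 and 6.81 on the GFP- arrays, 6.29 to 6.58 in leukemia and 6.50 to 6.83 in iPS cells. It rose 5.60-fold in GFP+ colonies (2.48 ± 0.55, limma adjusted p = 0.00848), and differed by 1.49 in GFP- colonies (adjusted p = 0.0843, but 0.0179 without GFP- replicate 3) and by 0.28 in iPS cells (0.787). Meis1, a homeobox partner of Hox proteins, rose by 1.97 ± 0.42, 2.23 ± 0.42 and 1.27 ± 0.42 (adjusted p = 0.00639, 0.00328 and 0.0477). Its iPS call was lost without any 1 leukemia or iPS array, GFP+ replicate 3 or GFP- replicate 2 (adjusted p up to 0.131). Endothelial cells can also express Gata2 and Meis1. Tek was called higher than leukemia in all 3 groups. It read 6.48, 5.88 and 7.32 on the GFP- arrays and averaged 7.34 in iPS cells. Of the 10 endothelial markers, 1, 1 and 3 were called higher, as given above. The part of endothelial cells in the Gata2 and Meis1 levels was not tested.

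Of 4 erythroid and megakaryocyte regulators, 2, 3 and 3 were called lower. Nfe2, which drives late platelet formation, differed by -0.75, -0.76 and -0.62 (limma adjusted p = 0.00511, 0.00468 and 0.0121), the last lost without iPS replicate 2 (0.0521) or 3 (0.0509). Zfpm1, the cofactor of Gata1, differed by -0.81 (not called), -1.34 (adjusted p = 0.0178) and -1.89 (0.00224), and its GFP- call was lost without any 1 leukemia array or GFP- replicate 2 (0.0534 to 0.064). Of 5 myeloid regulators, 1 was called lower in each comparison, and 0, 0 and 1 higher. Cebpe, a granulocyte factor that is also on the neutrophil list, fell by 0.74, 0.71 and 0.76 on the log2 scale (limma adjusted p = 0.00293, 0.00374 and 0.00214). Klf4, which the reprogramming cassette also encodes, differed by 0.57 and -0.38 in colonies (not called) and by 1.07 in iPS cells (adjusted p = 0.0269), a call lost without any 1 leukemia or iPS array (0.0614 to 0.0843).

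The genes most like each factor were found by the root mean square (RMS) difference of log2 profiles over the 12 arrays, each centred on its mean. For Ikzf1 they were Satb1 (RMS 0.427), a chromatin organiser of T cells, Parvg (0.643) and Dock8 (0.677). For Ikzf3 they were Trav9d-3 (0.280), a T cell receptor segment, and the neutrophil granule genes Camp (0.305) and Ngp (0.318), 2 of the 10 neutrophil markers above. Runx1 was followed by Kcnn4 (0.278), Apbb1ip (0.299) and Dusp10 (0.342), and Fli1 by Slc9a9 (0.215), Lcp2 (0.236) and Fermt3 (0.245). Myb had the most distant neighbours: Prkcb (0.741), Cd53 (0.797) and Cd69 (0.812). Among factors of small range the distances were small by construction: Spi1 was nearest to Zfp319 (0.143), Mllt1 (0.156) and Rbck1 (0.157), and Gfi1 to Cnnm1 (0.159), Cbl (0.164) and Scarna17 (0.176). Lmo2 was nearest to Krt34 (0.103), Slc35a3 (0.112) and Fam240a (0.112), Tal1 to Zic1 (0.0909), Mfsd4b5 (0.0931) and Kirrel3 (0.114), and Lyl1 to Rnpc3 (0.122), Scaf4 (0.145) and Dtx3 (0.151). Between factors, the closest pairs were Tal1 with Lyl1 (0.244) and Spi1 with Lmo2 (0.282), all of small range. Ikzf1 and Ikzf3, of 1 family and of wide range over the 12 arrays, stood 1.04 apart. Each was nonetheless the nearest factor to the other. These profiles share the same 12 arrays, and the distances are a description.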

How the data were processed

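The 12 arrays (3 per group, replicate numbers from the titles) were deposited by the authors as log2 values of 41345 probe sets, made with RMA per the submitters' processing notes. The RMA version is not given in the sources used here. The quantile step of RMA makes array distributions nearly equal (medians 5.76 to 5.82), so a shift of most genes one way would be removed. No background values were used, so precision is limited by how many arrays there are.

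The platform annotation gave 23521 probe sets 1 symbol and 1814 several. The latter, and 16010 without a symbol, were left out. The brightest probe set of a gene (mean over all arrays) was kept, which left 22180 genes (only Myb of the 10 factors had a second). All genes were fitted with a mean for each group in limma 3.58.1 in R 4.3.3 (empirical Bayes, Benjamini-Hochberg, threshold 0.05). The fit was tested on simulated data.

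The factors, lists and tests were chosen with earlier results of these data known. Genes named are the factors, the 2 called genes of each related list with the largest difference from leukemia, the 3 nearest profiles of each factor, and Ptprc and Cd3e. Mybl2, Gfi1b, Csf1r, Cd3g, Pecam1 and Tek were named after their values were seen. Runx2 and Tcf7 were not analysed here. Alternatives were a fit on 2 groups, cyclic loess, array weights, the replicate number as a block, a trended robust prior, the mean of a gene's probe sets, genes at or above the median level, leaving out each array, and leaving out GFP+ replicate 3 with GFP- replicate 1. The probe sets were 17247336 (Ikzf1), 17268820 (Ikzf3), 17373177 (Spi1), 17332236 (Runx1), 17239664 (Myb), 17373781 (Lmo2), 17450679 (Gfi1), 17525310 (Fli1), 17417138 (Tal1) and 17503208 (Lyl1). Promoter windows leave out bases after the start site.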

Additional observations from a re-analysis of the deposited data

How the results depend on the processing

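For the 10 factors against leukemia, 588 alternatives kept the direction of the difference, and 548 of them also the side of the threshold. In 30 a call was lost and in 10 one was gained. In many of these the direction could not change. Leaving out an array of another group, the fit on 2 groups, the block, the trended prior and the median-level filter do not alter the difference itself. The mean of probe sets does not alter it for factors with 1 probe set. Ikzf1, Ikzf3, Myb, Gfi1 and Fli1 kept their calls against leukemia in all alternatives run for them. The count of factors called against leukemia in GFP+ colonies was 5 by cyclic loess and 5 to 8 with 1 array left out. Loess also moved the share of calls that were higher than leukemia from 43.9% to 57.1% in GFP+ colonies, from 43% to 53.4% in GFP- colonies, and, for iPS cells against GFP+ colonies, from 59.2% to 48.3%. Between GFP- and GFP+ colonies, where 0 were called, array weights gave 2, leaving out both arrays that stood apart gave 3, and single arrays left out gave 0 to 1. For iPS cells against GFP- colonies these counts were 1, 1 and 0 to 1. For iPS cells against GFP+ colonies, the fit on 2 groups gave 2 (Runx1 and Myb, without Ikzf1). Array weights gave 3, both arrays out 3, and single arrays out 0 to 3. The weights did not fully converge. Uncalled differences changed sign for Myb between colony groups (-0.60 to 1.06 with 1 array left out) and for Runx1 between iPS and GFP- cells (-0.067 by loess, -0.72 to 0.83 with 1 array left out). The causes were not tested. Lmo2, Gfi1, Tal1 and Lyl1 fell below the median level and had no value under that filter.

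The replicate numbers did not pair arrays: deviations of same-numbered arrays correlated at -0.38 to 0.32 over 18 pairs, with 2 above 0.1, and 6 of 12 arrays matched best with their own number. With the replicate number as a block, 0 factors were called between iPS cells and GFP+ colonies (Ikzf1 adjusted p = 0.0607), and 7 in GFP+ colonies against leukemia (Spi1 adjusted p = 0.0608).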

Other observations

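Replicate 2 of the iPS cells was the highest iPS array for 9 of the 10 factors, Runx1 being the exception, whereas it was the highest for 33% of all genes. Pf4 and C1qa were chosen after their values were seen, and the rest of the Pf4 marker list was added afterwards. Pf4, a platelet chemokine gene, read 6.34, 6.04 and 10.79 on the GFP+ arrays and 6.79, 9.81 and 4.66 on the GFP- arrays. C1qa, a complement gene of macrophages, read 6.29, 6.65 and 10.11, and 6.94, 8.36 and 6.22 on the same arrays. Both were highest on GFP+ replicate 3 and, within the GFP- colonies, on replicate 2. The 7 measured megakaryocyte and platelet genes, Pf4 among them, did not share 1 highest colony array. Ppbp (9.43) and Gp9 (7.03) were highest on GFP- replicate 1. Itga2b (6.65) was highest on GFP- replicate 2, and Gp6 (6.29) on GFP- replicate 3. Gp5 (6.98) was highest on GFP+ replicate 1, and Treml1 (6.57), like Pf4, on GFP+ replicate 3.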
